A study of Sus scrofa with 10 samples.

Results

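The genes described here are the 10 that encode the procollagen prolyl and lysyl hydroxylases (P4HA1, P4HA2, P4HA3, PLOD1, PLOD2 and PLOD3), the collagen chaperones of the endoplasmic reticulum (SERPINH1 and FKBP10) and the proteins that remove the C-terminal propeptide (BMP1 and its enhancer PCOLCE). They were taken by gene symbol, and all 10 were found among the 12378 genes of the deposited table that have a symbol. Their transcripts were measured by bulk RNA sequencing of right ventricular biopsies from 5 pigs with chronic thromboembolic pulmonary hypertension (CTEPH), a disease in which persistent clots obstruct the pulmonary arteries and load the right ventricle with pressure, and from 5 Sham pigs. Each pig gave 1 library, and the libraries are called s1, s3, s4, s5 and s9 (CTEPH) and s2, s6, s7, s8 and s10 (Sham) after their labels. The sources used here do not give how the disease was induced, its duration, the sham procedure or the strain, age and sex of the pigs.

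Procollagen chains are modified while they enter the endoplasmic reticulum. Prolyl 4-hydroxylases convert prolines to 4-hydroxyproline, which keeps the triple helix stable at body temperature, and lysyl hydroxylases make the hydroxylysines that carry sugars and enter crosslinks. HSP47, the product of SERPINH1, binds the folded helix until it leaves for the Golgi, and outside the cell BMP1 cuts off the C-terminal propeptide so that fibrils can assemble. In the heart most fibrillar collagen comes from fibroblasts, and its deposition accompanies chronic pressure load.

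None of the 10 transcripts passed the test between groups. Values are log2 values as deposited, a fold change is the CTEPH mean minus the Sham mean, and a gene was called at a Benjamini-Hochberg adjusted p under 0.05 in a limma fit over all genes. By this rule 0 of 10 were called, against 4.62% of all genes, of which 2.83% were higher and 1.79% lower in CTEPH. At an unadjusted p under 0.05 there were 3 (FKBP10, SERPINH1 and BMP1), all with a positive fold change, against 20.3% of all genes in either direction and 9.84% in this one. Fold changes were positive for 8 of the 10 and negative for P4HA3 and PLOD2, against 46.4% positive over all genes, and their median was 0.20 against -0.03 for all genes. For none of the 10 were the groups free of overlap, against 6.57% of all genes. At least 3 CTEPH libraries lay above every Sham library for 4 of the 10 (PLOD1, PLOD3, SERPINH1 and FKBP10), against 17.6% of all genes.

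**Figure D1:**
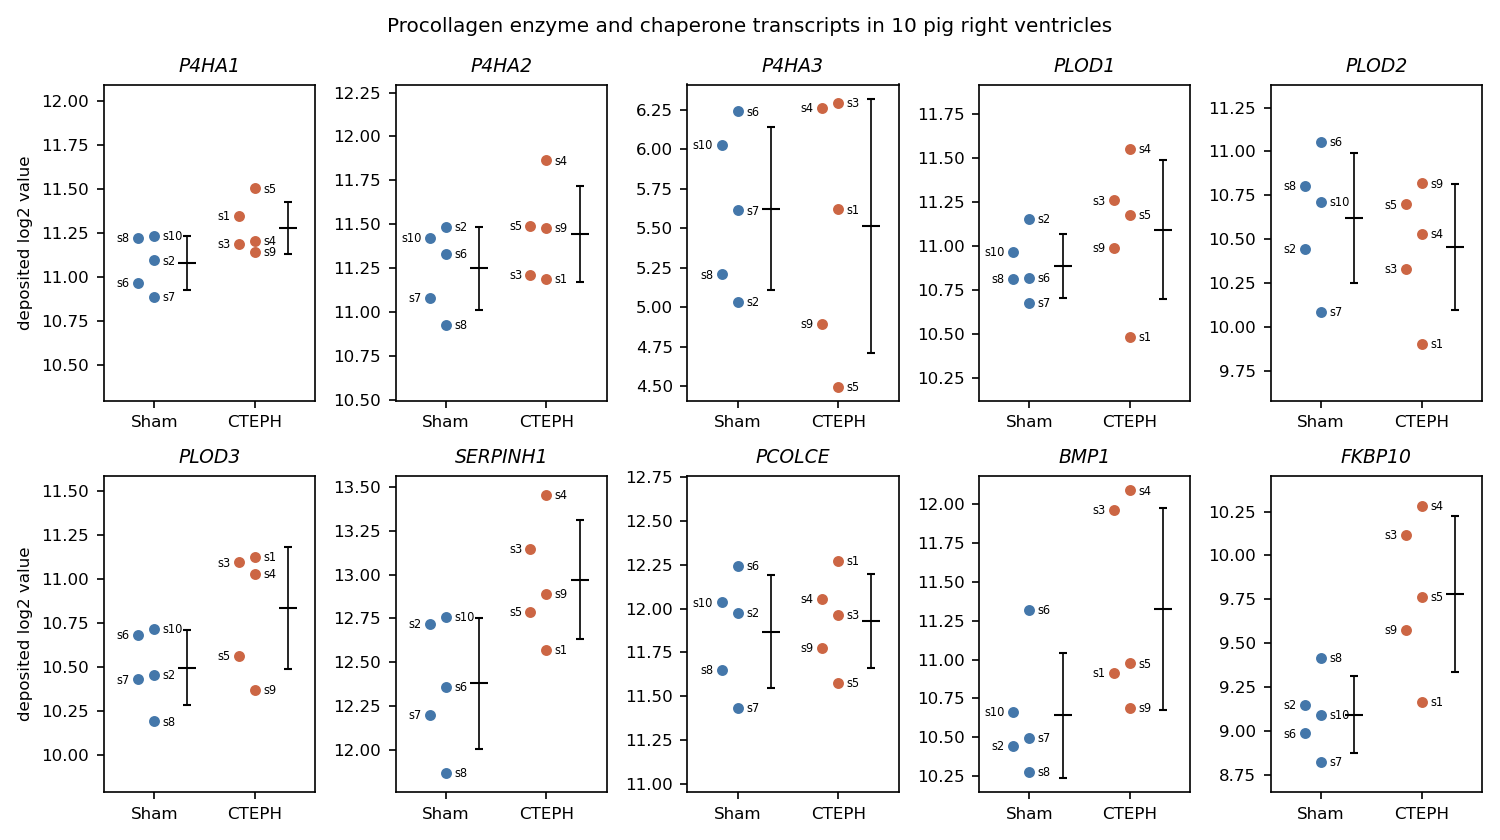
Deposited log2 value (vertical axis, a separate range for each gene) of the 10 transcripts in each library, with Sham on the left and CTEPH on the right of each panel. Points are single pigs marked with the library name and the bars are the mean ± SD of 5 pigs; the groups overlap in all 10 panels, and s3 and s4 lie at the top for SERPINH1, BMP1 and FKBP10.

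FKBP10 had the smallest p of the 10. It encodes FKBP65, a prolyl isomerase and chaperone of the endoplasmic reticulum that acts on procollagen and supports lysyl hydroxylation of its telopeptides. Its log2 value was 9.17 in s1, 10.12 in s3, 10.28 in s4, 9.76 in s5 and 9.57 in s9 of the CTEPH libraries. In the Sham libraries it was 9.15 in s2, 8.99 in s6, 8.82 in s7, 9.42 in s8 and 9.09 in s10. Of the CTEPH libraries 4 lay above every Sham library, while s1 lay inside the Sham range. The group means were 9.78 ± 0.44 and 9.09 ± 0.22 (SD of 5 pigs). Their difference, the log2 fold change, was 0.69 ± 0.21 (SE), or 1.61-fold with a 95% interval of 1.18 to 2.20 (limma adjusted p = 0.0823; two-sided exact permutation p = 0.0159, unadjusted). Without CTEPH library s1 the fold change was 0.84 and passed the threshold (limma adjusted p = 0.0208), when 3.64% of all genes were called higher. It also passed with library weights (0.86, limma adjusted p = 0.0154), when 4.62% of all genes were called higher. These weights were lowest for s1 (0.476), so the weighted fit is not independent of the refit without s1. In the other 9 refits without 1 library the adjusted p of FKBP10 ran up to 0.178, without s4.

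SERPINH1 encodes HSP47, the collagen-specific chaperone. In CTEPH its log2 value was 12.57 in s1, 13.15 in s3, 13.45 in s4, 12.79 in s5 and 12.89 in s9. In Sham it was 12.72 in s2, 12.36 in s6, 12.20 in s7, 11.87 in s8 and 12.76 in s10. Again 4 CTEPH libraries lay above every Sham library and s1 lay within the Sham range, below s2 and s10. CTEPH exceeded Sham by a log2 fold change of 0.59 ± 0.20 (SE), or 1.50-fold with a 95% interval of 1.11 to 2.03, and it did not pass (limma adjusted p = 0.118; two-sided exact permutation p = 0.0397, unadjusted). In the refits without 1 library the adjusted p ranged from 0.0669 without s1 to 0.242 without s4.

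BMP1 encodes the procollagen C-proteinase, which also matures lysyl oxidase and other matrix proteins. Its log2 value in CTEPH was 10.92 in s1, 11.96 in s3, 12.09 in s4, 10.97 in s5 and 10.69 in s9. In Sham it was 10.44 in s2, 11.32 in s6, 10.50 in s7, 10.28 in s8 and 10.66 in s10. The 5 CTEPH pigs thus fell into a high pair, s3 and s4, and 3 pigs that lay between the highest Sham library, s6, and the other Sham libraries. The log2 fold change of 0.69 was as large as that of FKBP10 but had a wider error, 0.29 (SE), with a 95% interval of the fold from 1.05 to 2.47 (limma adjusted p = 0.197; two-sided exact permutation p = 0.0873, unadjusted). It was 0.50 to 0.86 in the refits without 1 library, none of which passed.

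PCOLCE encodes the procollagen C-proteinase enhancer, a secreted glycoprotein that binds the propeptide and speeds its removal by BMP1. In CTEPH its log2 value was 12.27 in s1, 11.96 in s3, 12.05 in s4, 11.58 in s5 and 11.78 in s9, and in Sham 11.97 in s2, 12.24 in s6, 11.44 in s7, 11.65 in s8 and 12.03 in s10. The highest CTEPH value came from s1, the library with low values for both chaperones, and the lowest from s5. Between groups PCOLCE differed by 0.06 ± 0.18 on the log2 scale (SE; 95% interval -0.32 to 0.44; limma adjusted p = 0.884). It turned negative without s1 or without s7 (-0.024 and -0.046).

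The prolyl 4-hydroxylase alpha subunits carry the catalytic site and pair with protein disulfide isomerase (P4HB). P4HA1 is the main form in most tissues. Its log2 value in CTEPH was 11.35 in s1, 11.19 in s3, 11.21 in s4, 11.50 in s5 and 11.14 in s9, and in Sham 11.095 in s2, 10.97 in s6, 10.89 in s7, 11.22 in s8 and 11.23 in s10. Only s1 and s5 lay above every Sham library, and the pigs of a group differed little, with SDs of 0.15 in both groups. The log2 fold change was 0.20 ± 0.13 (SE; limma adjusted p = 0.417), and its 95% interval of -0.08 to 0.47 reached at most a 1.38-fold excess in CTEPH.

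P4HA2 encodes the second alpha subunit. Its log2 value was 11.19 in s1, 11.21 in s3, 11.86 in s4, 11.49 in s5 and 11.48 in s9 of the CTEPH libraries. In Sham it was 11.49 in s2, 11.33 in s6, 11.08 in s7, 10.93 in s8 and 11.42 in s10. Apart from s4, the CTEPH values were inside the Sham range or, for s5, barely above its upper end. The log2 fold change was 0.20 ± 0.16 (SE; 95% interval -0.15 to 0.55; limma adjusted p = 0.538). It was 0.09 without s4 and 0.12 without s8.

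P4HA3, the third alpha subunit, was near the low end of the table, and its values could be read back as whole counts. The counts were 23 in s1, 37 in s3, 65 in s4, 12 in s5 and 10 in s9 of the CTEPH libraries, and 18 in s2, 57 in s6, 17 in s7, 15 in s8 and 26 in s10 of the Sham libraries. These counts may be off by a common factor of 2. If taken as true, a count of 10 has an exact Poisson 95% interval of 4.80 to 18.4, which covers counting error only. Divided by relative depth, the counts were 26.0 ± 14.2 for the CTEPH and 25.01 ± 9.22 for the Sham pigs (SD, n = 5 each). CTEPH held both the highest and the lowest depth-scaled counts, 41.3 in s4 and 11.2 in s5. On the deposited log2 scale the fold change was -0.11 ± 0.41 (SE; limma adjusted p = 0.916). Its 95% interval, 0.499-fold to 1.72-fold, was the widest of the 10 on the log2 scale. The sign turned without s5, s9 or s6 (0.14, 0.044 and 0.043).

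PLOD1, PLOD2 and PLOD3 encode lysyl hydroxylases 1, 2 and 3. Lysyl hydroxylase 1 modifies the helix, lysyl hydroxylase 2 the telopeptides that form pyridinoline crosslinks, and lysyl hydroxylase 3 also adds glucose to galactosylated hydroxylysine. PLOD1 was at 10.48 in s1, 11.26 in s3, 11.55 in s4, 11.17 in s5 and 10.99 in s9 of the CTEPH libraries. In Sham it was at 11.15 in s2, 10.82 in s6, 10.68 in s7, 10.81 in s8 and 10.97 in s10. CTEPH libraries lay on both sides of Sham, with s3, s4 and s5 above its range and s1 below it, and the SD was 0.40 in CTEPH and 0.18 in Sham. Their means differed by 0.21 ± 0.18 on the log2 scale (SE; 95% interval -0.19 to 0.60; limma adjusted p = 0.578). It was 0.36 without s1 and 0.09 without s4, neither of which passed (limma adjusted p = 0.175 and 0.838).

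PLOD2 was at 9.91 in s1, 10.33 in s3, 10.53 in s4, 10.70 in s5 and 10.82 in s9 of the CTEPH libraries. In Sham it was at 10.44 in s2, 11.06 in s6, 10.09 in s7, 10.80 in s8 and 10.71 in s10. No CTEPH library exceeded the highest Sham library, and s1 was the lowest of the 10. Its log2 fold change was -0.16 ± 0.21 (SE; limma adjusted p = 0.711), and its 95% interval of -0.62 to 0.29 reached at most a 1.22-fold excess in CTEPH. Without 1 library it ranged from -0.30 without s7 to -0.03 without s1, also at -0.06 without s6 and -0.25 without s9.

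PLOD3 was at 11.13 in s1, 11.09 in s3, 11.03 in s4, 10.56 in s5 and 10.37 in s9 of the CTEPH libraries. In Sham it was at 10.46 in s2, 10.68 in s6, 10.43 in s7, 10.19 in s8 and 10.72 in s10. Here s1, s3 and s4 formed a high trio above every Sham library, and s5 and s9 lay within the Sham range. PLOD3 had a log2 fold change of 0.34 ± 0.18 (SE; 95% interval -0.04 to 0.72; limma adjusted p = 0.301).

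**Figure D2:**
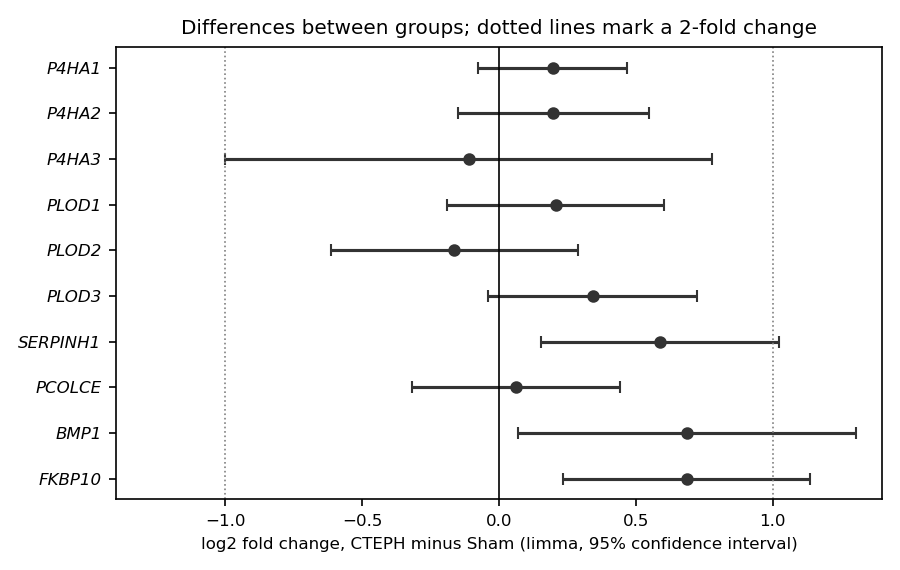
Log2 fold change of each transcript, CTEPH minus Sham (points, horizontal axis), with its 95% confidence interval from limma (bars); dotted lines mark a 2-fold difference. The intervals of 6 of the 10 lie within the dotted lines, and only those of SERPINH1, BMP1 and FKBP10 lie wholly above 0.

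The intervals bound the size of each difference. For P4HA1, P4HA2, PLOD1, PLOD2, PLOD3 and PCOLCE, 6 of the 10, the 95% interval lay within a 2-fold difference in either direction. The upper bounds of SERPINH1, FKBP10 and BMP1 exceeded 2-fold, and the lower bound of P4HA3, 0.499-fold, went just past a 2-fold deficit. These intervals are not adjusted for the number of genes. In bulk tissue, fewer cells of a type and less RNA per cell cannot be told apart.

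The CTEPH pigs differed from each other in which transcripts stood out. Library s4 exceeded every Sham library for 7 of the 10 transcripts, s3 for 6, s5 for 5, s1 for 3 and s9 for 2. Library s4 had the highest value of all 10 libraries for P4HA2, PLOD1, SERPINH1, BMP1 and FKBP10. Library s1 went in both directions: it was the highest of all for PLOD3 and PCOLCE and the lowest of all for PLOD1 and PLOD2. Measured as the median deviation of the 10 transcripts from their Sham means, s4 was at 0.63, s3 at 0.49, s5 at 0.27, s1 at 0.13 and s9 at 0.08. Among the Sham libraries s10 was at 0.16 and above the Sham mean for all 10 transcripts, while s7 was below it for all 10, at a median of -0.19.

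**Figure D3:**
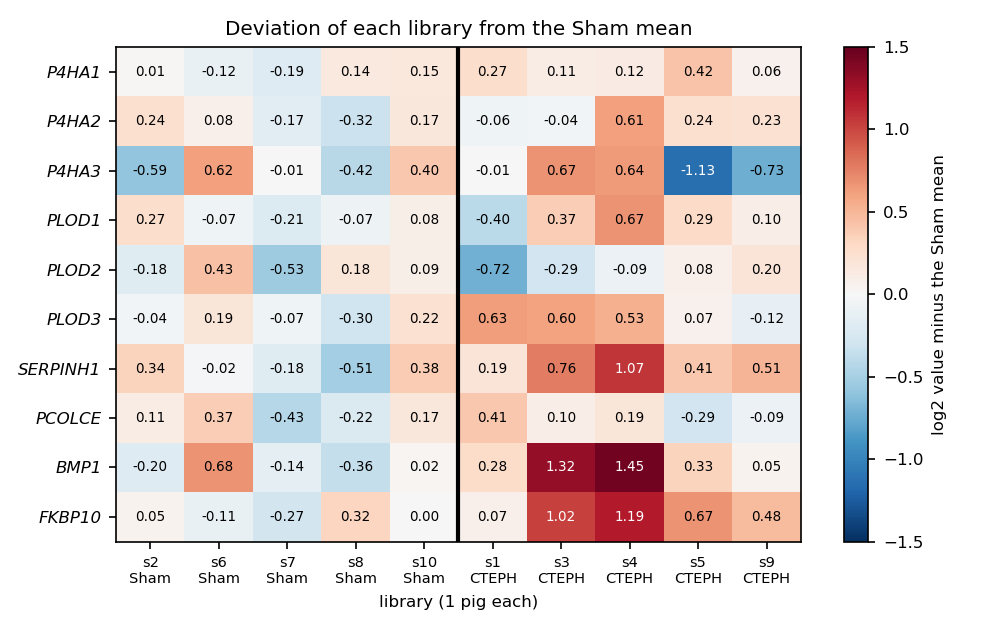
Log2 value of each transcript (rows) in each library (columns, Sham left and CTEPH right of the black line) minus the mean of the 5 Sham libraries, with the number printed in each cell. The largest positive deviations are those of BMP1 in s4 and s3 (1.45 and 1.32), followed by FKBP10 and SERPINH1 in s4 (1.19 and 1.07), and the largest negative one is that of P4HA3 in s5 (-1.13); s1 is above the Sham mean for PLOD3 and below it for PLOD1 and PLOD2.

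The depth of the libraries and their cell type markers were set beside this pattern. Relative depth ran from 0.724 in s9 to 1.57 in s4 among the CTEPH libraries. Among the Sham libraries it ran from 0.748 in s7 to 1.51 in s6. The libraries with the highest and lowest CTEPH medians, s4 and s9, were also the deepest and the shallowest in CTEPH. Between them the order differed: s3, with the next highest median (0.49), had a depth of 0.924, below those of s1 and s5. In Sham the highest median was that of s10 (0.16), at a depth of 0.844, while the deepest, s6, had a median of 0.13. The cardiomyocyte markers, of which 9 of 10 were measured, had a summed log2 level of 21.3 to 21.6 in CTEPH and 21.1 to 21.5 in Sham. Of these 9 limma called 1 higher, against 2.83% of all genes, and 0 lower, and 2 reached p under 0.05 before adjustment. Their fold changes were positive for 4 and negative for 5, with a median of -0.04. All 10 fibroblast markers were measured, with a summed level of 16.9 to 17.6 in both groups (exact two-sided permutation p = 0.421, unadjusted). Limma called 0 of them, and 4 reached p under 0.05 before adjustment, against 20.3% of all genes. Fold changes were positive for 6 and negative for 4. COL1A1 and COL1A2 belong both to this list and to the procollagen substrates given below, so these lists are not independent. Of 10 markers of activated fibroblasts 9 were measured, among them POSTN, which is also in the list of propeptide proteases and helpers. CCN2 and CTHRC1 were called higher, against 2.83% of all genes, and 0 lower. The summed level of the 9 was 14.2 to 16.6 in CTEPH and 13.7 to 14.2 in Sham, without overlap (exact two-sided permutation p = 0.00794, which no comparison of 5 with 5 pigs can undercut). By the mean deviation of these markers from their means over all libraries, s4 (1.94) and s3 (1.16) stood highest, s5 followed (0.81), and s9 (-0.11) and s1 (-0.40) were lowest in CTEPH, with Sham from -0.90 to -0.41. The part of depth and of activated fibroblasts in the values of the 10 transcripts was not tested.

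Markers of other cells gave further values. The summed level of 9 endothelial markers was 14.7 to 15.1 in CTEPH and 14.9 to 15.7 in Sham (exact two-sided permutation p = 0.0476, unadjusted). All 9 had a negative fold change, with a median of -0.36. TEK was called lower, against 1.79% of all genes, and 4 reached a limma p under 0.05 before adjustment, against 20.3%. The summed level was 15.0 to 15.9 and 15.3 to 15.7 for 10 smooth muscle and pericyte markers (exact two-sided permutation p = 0.833, unadjusted). Fold changes were positive for 5 of these and negative for 5, with a median of -0.11. CNN1 was called higher, against 2.83% of all genes, and 5 of the 10 reached a limma p under 0.05 before adjustment, against 20.3%. For 9 macrophage markers the summed level was 13.1 to 14.3 and 12.8 to 13.6 (exact two-sided permutation p = 0.119, unadjusted). Fold changes were positive for 8 of these and negative for 1. LYZ and TREM2 were called higher, against 2.83% of all genes, and 5 of the 9 reached a limma p under 0.05 before adjustment, against 20.3%. The 5 measured genes of dividing cells were all called higher, against 2.83% of all genes. Their summed level was 10.6 to 12.4 in CTEPH and 7.65 to 8.14 in Sham. Adipocyte markers (3 of 5 measured), lymphocyte markers (4 of 6), erythroid and platelet markers (2 of 5) and the 1 measured mesothelial marker, WT1, overlapped between groups, with 0 called and 0 under a limma p of 0.05 before adjustment. No marker had a recovered count of 0 in any library. The part of these cells in the values of the 10 transcripts was not tested either.

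Isoenzymes of a family were then compared within each library, as the difference of their log2 values, which does not depend on gene length as long as the groups are compared and not the genes. Of 6 such differences 0 passed an exact permutation test, also without adjustment. The largest shift was in PLOD3 minus PLOD2, at 0.38 ± 0.67 for CTEPH and -0.13 ± 0.37 for Sham pigs (SD of 5; exact two-sided permutation p = 0.183, adjusted p = 0.548 over the 6 pairs). It was 1.22 in s1, 0.76 in s3 and 0.50 in s4, above every Sham library, but -0.13 in s5 and -0.45 in s9. PLOD2 minus PLOD1 was -0.63 ± 0.35 for CTEPH and -0.26 ± 0.40 for Sham pigs (SD of 5; exact two-sided permutation p = 0.159, adjusted p = 0.548). PLOD3 minus PLOD1 was 0.64 in s1 and between -0.62 and -0.16 in the other CTEPH libraries, while Sham ran from -0.70 to -0.13. P4HA2 minus P4HA1 was the same in both groups on average, 0.17 ± 0.33 and 0.17 ± 0.28 (SD, n = 5 each).

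Some of the genes are close to each other in the genome. In the RefSeq gene table of Sscrofa11.1, counted from 1, PLOD1 (chromosome 6, 71987938 to 72019712) lies 56.1 kb from the natriuretic peptide gene NPPB, with KIAA2013 as the 1 protein-coding gene between them. NPPB rose by 6.57 ± 0.85 on the log2 scale (SE; limma adjusted p = 7.6e-04), while KIAA2013 differed by 0.08 ± 0.16 and PLOD1 by the 0.21 given above. PCOLCE (chromosome 3, 8523455 to 8528749) and PLOD3 (chromosome 3, 8911787 to 8919525) are 383 kb apart, with 26 protein-coding genes between them. Both had their highest value in s1, and a link to their position was not tested. P4HA3 (chromosome 9, 8627365 to 8681804) and SERPINH1 (chromosome 9, 9782939 to 9794485) are 1101 kb apart, with 18 protein-coding genes between them. The others are P4HA1 (chromosome 14, 75827207 to 75919121), BMP1 (chromosome 14, 6443773 to 6489066), P4HA2 (chromosome 2, 134502210 to 134595444), PLOD2 (chromosome 13, 86402673 to 86513167) and FKBP10 (chromosome 12, 20872155 to 20881604).

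The rest of the pathway was read from gene lists built by step of collagen synthesis. Of the closest partners of the 10 none passed either: of 19 genes of hydroxylation, folding and glycosylation 0 were called by limma and 3 reached p under 0.05 before adjustment, against 20.3% of all genes, with a median log2 fold change of 0.22. PPIB, which encodes the prolyl isomerase cyclophilin B of the prolyl 3-hydroxylation complex, differed by 0.44 ± 0.15 (SE; limma adjusted p = 0.123), and P3H1, the prolyl 3-hydroxylase of the same complex, by -0.41 ± 0.16 (0.181). CRTAP, the other subunit of that complex, was at -0.02 ± 0.16. SPARC, which encodes a collagen-binding matrix protein, differed by 0.65 ± 0.24 (0.145; 0.0461 without s1), the galactosyltransferase gene COLGALT1 by 0.40 ± 0.19 (0.263) and P4HB by 0.22 ± 0.15 (0.44).

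In the list of procollagen export 2 of 16 genes rose, against 2.83% of all genes, and 0 fell, with a median of 0.14. KDELR3, which encodes a receptor that returns escaped chaperones from the Golgi to the endoplasmic reticulum, rose by 1.03 ± 0.22 (SE; limma adjusted p = 0.020). It was at 9.07 in s1, 10.35 in s3, 10.16 in s4, 10.32 in s5 and 10.13 in s9 of the CTEPH libraries, and between 8.88 and 9.06 in Sham. As for FKBP10 and SERPINH1, s1 was the lowest CTEPH library, here just above the Sham range. SEC24D, a cargo adaptor of the coat that carries procollagen, rose by 0.53 ± 0.14 (limma adjusted p = 0.0467), reaching 10.53 ± 0.17 against 10.01 ± 0.17 in the Sham pigs (SD of 5). KDELR2 and SEC23B differed by 0.32 ± 0.11 and 0.45 ± 0.15 without passing (limma adjusted p = 0.136 and 0.104). KDELR3 lost its call without s3, s4, s5 or s6, at an adjusted p of up to 0.0538, and SEC24D lost it in 9 of the 10 refits without 1 library, all but that without s9, at up to 0.12.

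Among the other propeptide proteases and their helpers limma called 0 of 12 genes, 6 reached p under 0.05 before adjustment, against 20.3% of all genes, and the median was 0.41. ADAMTS2, which encodes the main procollagen N-proteinase, differed by 0.95 ± 0.25 (SE; limma adjusted p = 0.0515), and ADAMTS14, another N-proteinase, by 1.51 ± 0.44 (0.0731). TLL2, a tolloid-like relative of BMP1 with low values, differed by 1.71 ± 0.46 (0.0523), while its relative TLL1 was at -0.76 ± 0.44 (0.37). ADAMTS2 passed without s1 (limma adjusted p = 0.0062), TLL2 without s5 (0.022) and ADAMTS14 without s9 (0.0223). POSTN, a matricellular protein gene, differed by 0.70 ± 0.20 (0.0708) and passed without s1 or s9. PCOLCE2, the relative of PCOLCE, was at -1.31 ± 0.43 (0.105).

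Among the substrates 2 of 17 procollagen genes, COL8A1 (1.80 ± 0.23) and COL12A1 (1.57 ± 0.31), rose, against 2.83% of all genes, 0 fell and the median was 0.18. Both kept their calls in all 10 refits without 1 library. COL4A1 and COL4A2, the main basement membrane chains, differed by 0.65 ± 0.19 and 0.62 ± 0.22 (limma adjusted p = 0.0724 and 0.127), and passed without s9 (0.00394 and 0.0111). The major fibrillar chains, on which most of the machinery works, had 95% intervals of -0.26 to 1.02 for COL1A1, -0.41 to 0.77 for COL1A2 and -0.53 to 0.42 for COL3A1. Within CTEPH COL1A1 was at 15.25 in s3, 15.28 in s4 and 15.00 in s5 but at 14.13 in s1 and 13.81 in s9, where Sham ran from 13.85 to 14.77. Among 9 genes of other proteins known as BMP1 substrates or related to them, LOXL1 rose by 2.21 ± 0.48 (limma adjusted p = 0.0199; not passing without s5 or s8, at up to 0.0545) and 0 fell, with a median of 0.00. BGN differed by 1.16 ± 0.38 (limma adjusted p = 0.104) and passed without s9 (0.0152), CHRD differed by 0.27 ± 0.22 and GDF11 by -0.49 ± 0.40 (0.532 and 0.537). CHRD was at 0.15 without s3 or s10, and GDF11 at -0.18 without s1 and -0.74 without s4.

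**Figure D4:**
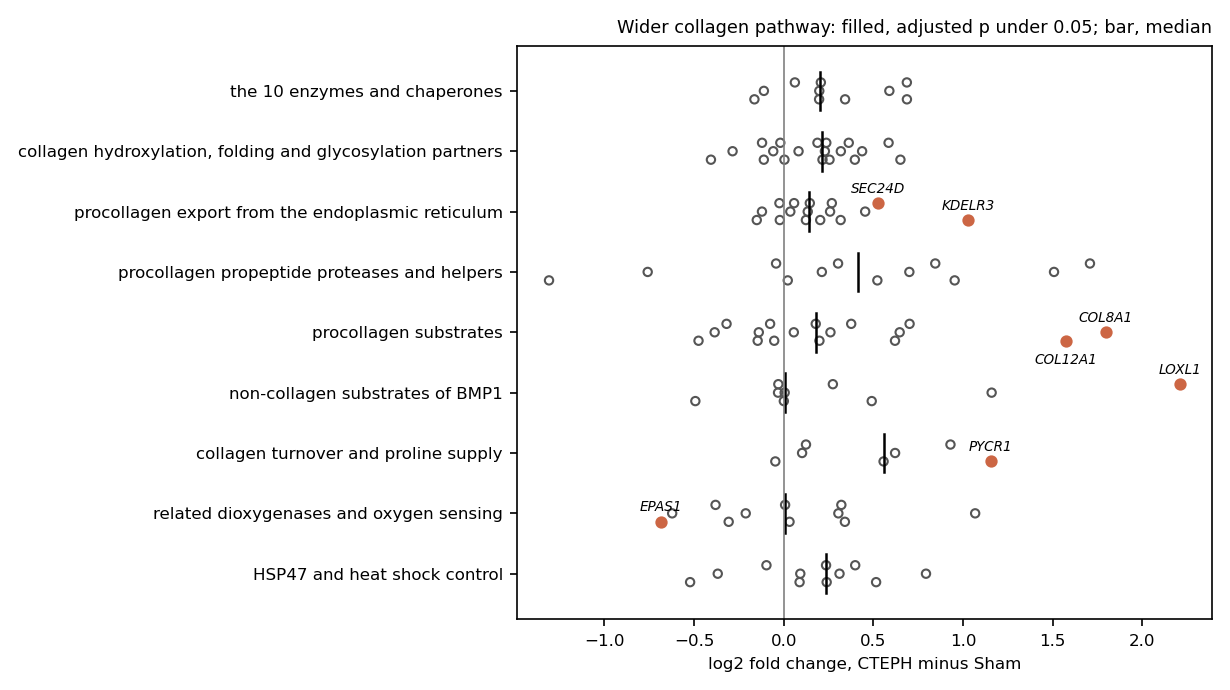
Log2 fold change, CTEPH minus Sham (horizontal axis), of every measured gene of the 10 transcripts and of 8 lists of the collagen pathway (rows); open circles did not pass, filled and named circles had a limma adjusted p under 0.05, and the black bar is the median of the row. No circle of the top row is filled, and the filled circles are SEC24D, KDELR3, COL8A1, COL12A1, LOXL1 and PYCR1 on the higher side and EPAS1 on the lower.

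Proline supply had 1 called gene of 7, which rose, and oxygen sensing 1 of 11, which fell, where 2.83% of all genes were called higher and 1.79% lower. Prolyl and lysyl hydroxylases use molecular oxygen, and several of their genes are known targets of hypoxia-inducible factors. PYCR1, the last enzyme of mitochondrial proline synthesis, rose by 1.16 ± 0.24 (SE; limma adjusted p = 0.0164) in the list of turnover and proline supply, where 0 fell and the median was 0.56. It was at 9.22 in s1, 8.62 in s3, 9.34 in s4, 9.19 in s5 and 8.03 in s9, above the Sham range of 7.64 to 7.81, and kept its call in all 10 refits without 1 library. ALDH18A1, which makes its precursor, differed by 0.56 ± 0.20, SLC1A4 by 0.93 ± 0.34, which passed without s9 (0.0278), and the lysosomal protease gene CTSL by 0.62 ± 0.42 (limma adjusted p = 0.131, 0.138 and 0.444). The CTSL value was 0.22 without s1.

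Of 11 genes of related dioxygenases and oxygen sensing 0 rose and EPAS1, which encodes HIF-2 alpha, fell by 0.68 ± 0.15 (SE; limma adjusted p = 0.019; 0.0544 without s7), with a median of 0.01. HIF1A differed by 0.30 ± 0.15, the glycolytic target LDHA by 1.07 ± 0.31 and the hypoxia target CA9 by -0.62 ± 0.19 (limma adjusted p = 0.275, 0.0708 and 0.0777). LDHA passed without s1 (0.021) and CA9 without s9 (0.0159). In the list of heat shock and endoplasmic reticulum stress, which holds HSF1, the heat shock factor known to act on SERPINH1, limma called 0 of 11 genes and 4 reached p under 0.05 before adjustment, against 20.3% of all genes, with a median of 0.24. HSPH1 differed by 0.79 ± 0.21 (0.0523; passing without s2 or s9), HSPA5, the endoplasmic reticulum chaperone BiP, by 0.51 ± 0.20 (0.172), HSF2 by 0.40 ± 0.18 (0.23), and DDIT3 by -0.52 ± 0.21 (0.181), which passed without s9 (0.0475).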

How the data were processed

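Right ventricular biopsies of 5 CTEPH and 5 Sham pigs gave 1 library each. Per the submitters' processing notes, the authors used featureCounts, edgeR 3.36.0 and limma 3.50.0 after bcl2fastq 2.18.12, FastQC 0.11.5 and cutadapt 1.15, on build Sscrofa11.1. The labels give polyA RNA but name a kit for total RNA. The aligner, annotation, strand setting and gene filter are not stated there. The deposited file holds log2 values of 15638 genes with nearly the same distribution in every library (medians of 9.305 to 9.308), as quantile normalization leaves, which hides any shift common to most genes. Below 9.48 they equal, within 5e-10, quantile means of log2(count + 0.5) plus 1, where counts may be off by a common factor of 2. This gave counts for 52.8% of values, relative depth (from 5703 genes with at least 5 counts in each library) and all counts of P4HA3. In 8 of the 10 genes every value lay above this range, at more than 259 counts in each library. Totals per library are unknown.

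Gene symbols were looked up by Ensembl identifier (12378 of 15638 genes matched), coordinates from RefSeq by symbol; promoter and protein sequences were not used here. CTEPH was compared with Sham by limma 3.58.1 under R 4.3.3 (moderated variances with an intensity trend, no covariate, no low-value filter, two-sided, Benjamini-Hochberg over all genes), and single values and isoenzyme differences with exact permutation over all assignments of libraries to groups (Python 3.11.15). The fit was tested on simulated data. The genes and lists were chosen with earlier results of these data known; genes withheld from this text were left out of the lists after the fit and are not reported here. Named were all 10 genes and, of each pathway list, the called genes and the 4 with the smallest p; CRTAP, P4HB, TLL1, PCOLCE2, COL1A1, COL1A2, COL3A1, KIAA2013 and NPPB were added after their values were seen. A list's summed level is the log2 of the sum of its genes' unlogged values. Nothing in the labels says that pigs were processed in batches. The alternatives were other variance priors, library weights, a low-value filter, voom on recovered counts and leaving out each library.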

Additional observations from a re-analysis of the deposited data

Results flagged for a closer look

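In 96 groups of 5 libraries, 4 single libraries stood apart from the rest of their group by Dixon's ratio, where chance gives about 1 in 20. None concerned the 10 genes or their isoenzyme differences. The log2 value of KDELR3 was 9.07 in CTEPH library s1 and that of KDELR2 11.21 in CTEPH library s3. SEC23B was at 9.31 in Sham library s10 and HSF2 at 9.61 in Sham library s6.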

How the results depend on the processing

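The 10 genes were recomputed 140 times: 133 values kept their direction and their side of the threshold, 2 (both FKBP10) passed, and 5 near 0 changed sign (P4HA3 and PCOLCE, refits without 1 library). With library weights 1 of the 10 was called higher, against 4.62% of all genes. Over all genes 443 were called higher and 280 lower; library weights gave 722 and 547, voom on the 6763 genes recovered in all libraries 213 and 95, and a filter on the lowest 25% gave 273 higher. Without 1 library the counts ran from 270 to 570 higher and from 117 to 392 lower, and the 10 genes had 0 to 1 called higher and 0 lower.

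With library weights the calls were 1 higher for hydroxylation partners, 4 for propeptide proteases, 4 for procollagens, 2 for other BMP1 substrates, 1 higher and 2 lower for oxygen sensing and 1 higher for heat shock. Robust moderation gave 2 propeptide proteases, and limma without the trend 1 export gene. Without 1 library the higher calls ranged over 0 to 1 for hydroxylation partners, 0 to 2 for export, 0 to 2 for propeptide proteases, 2 to 5 for procollagens, 0 to 2 for other BMP1 substrates, 1 to 2 for proline supply, 0 to 1 for oxygen sensing and 0 to 1 for heat shock. Lower calls ranged over 0 to 1 for propeptide proteases and helpers and for heat shock, 0 to 2 for oxygen sensing and stayed at 0 elsewhere. Over all genes 117 to 392 were called lower in these refits. The isoenzyme shifts without 1 library ranged from -0.12 to 0.083 for P4HA2 minus P4HA1, -0.53 to 0.0025 for P4HA3 minus P4HA1, -0.56 to -0.044 for P4HA3 minus P4HA2, -0.49 to -0.24 for PLOD2 minus PLOD1, -0.089 to 0.23 for PLOD3 minus PLOD1 and 0.30 to 0.71 for PLOD3 minus PLOD2, and none passed. P4HA3 ranged from -0.31 to 0.14 and PCOLCE from -0.046 to 0.16. Of the 10 genes voom could be fitted for P4HA3 alone, and list counts and isoenzyme differences were not run on counts, since most of these genes lie above the recovered range. No paired analysis was possible because the labels give no pairing of CTEPH with Sham pigs. The cause of each change was not tested.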
